A study of Mus musculus with 12 samples.

Results

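TCRBV31-01 is the gene segment Trbv31, known as Vβ14 in the older nomenclature, and its rearrangements were described in CD8 T cells of MC38 tumor-bearing mice. Members were all records in the 12 repertoires whose V gene was given as TCRBV31-01, which came to 7918 of 288925 records. Of these, 4621 were in frame (productive), 3231 were out of frame and 66 contained a stop codon, and they represented 7642 different nucleotide sequences. The repertoires came from female C57BL/6 mice bearing MC38, a colon adenocarcinoma line of this strain, and all of the mice received anti-CTLA-4 Ab together with anti-PD-L1 Ab, so that no untreated group was present. Splenic CD8 T cells had been separated into CD27loCX3CR1lo, CD27hiCX3CR1lo and CX3CR1hi subsets, and CD8 TILs were the fourth group. Each group had 1 sample in each of 3 experiments, named here A, B and C after the order of their codes in the sample titles. The study lists several mice per experiment against 1 sample of each group, and how their cells were combined is not given in the sources used here. The files hold receptor DNA only, so the sorted cell types could not be checked against marker genes.

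A TCRβ chain is assembled from V, D and J segments, with bases trimmed from the segment ends and non-templated bases added at the joints. The joint forms the CDR3, the loop that contacts the peptide. Most mouse Vβ segments lie upstream of the D and J segments and join by deleting the DNA in between. Trbv31 lies downstream of the last constant region gene in the opposite orientation and joins by inversion, which retains the intervening DNA on the chromosome. Rearrangements that fall out of frame encode no receptor chain and are carried by cells that use their other allele, so that they have not been selected for the protein they would encode.

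In the RefSeq annotation of assembly GRCm38.p6, Trbv31 (gene 269846) spans chr6:41557693-41558371, a V segment of 679 bp. Its start lies 9.51 kb beyond the end of Trbc2, 13.8 kb beyond Trbj2-7, 15.5 kb beyond Trbd2 and 24.5 kb beyond Trbd1. The nearest annotated V segment on the other side of the D and J segments, Trbv30, ends 276 kb before it, and Trbv1 at the far end of the locus ends 666 kb before it. The deposited reads cover 87 bases each and end within the J segment. The 30 bases that precede the CDR3 were identical in 99.5% of the 7901 TCRBV31-01 records in which they could be read.

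The rearrangements on which the clonal results turn are shown from 5′ to 3′ as deposited, with the bases between the V and J ends in capitals. The names V31c1 to V31c9 rank TCRBV31-01 rearrangements by their highest share of productive templates in any sample, and a template is the assay's estimate of 1 rearranged genome.
V31c1: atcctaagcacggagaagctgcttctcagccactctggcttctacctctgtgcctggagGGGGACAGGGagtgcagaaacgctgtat
V31c6: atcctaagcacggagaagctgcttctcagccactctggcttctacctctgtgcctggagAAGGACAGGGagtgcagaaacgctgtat
V31c2: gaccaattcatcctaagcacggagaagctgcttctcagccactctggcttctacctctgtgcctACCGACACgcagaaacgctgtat
V31c5: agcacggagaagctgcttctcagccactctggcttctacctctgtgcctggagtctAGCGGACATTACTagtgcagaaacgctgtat
V31c3: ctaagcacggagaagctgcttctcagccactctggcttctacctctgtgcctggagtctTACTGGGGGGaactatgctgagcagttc
V31c7: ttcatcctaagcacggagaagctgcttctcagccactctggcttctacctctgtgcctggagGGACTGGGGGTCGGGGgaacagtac
V31c9: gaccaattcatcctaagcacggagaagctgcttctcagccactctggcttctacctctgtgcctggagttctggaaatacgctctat
V31c1, V31c2, V31c5 and V31c6 are joined to TCRBJ02-03, V31c3 to TCRBJ02-01, V31c7 to TCRBJ02-07 and V31c9 to TCRBJ01-03. V31c9 has no capitals because its V and J ends meet directly, with no D or inserted base assigned in the file.

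Depth differed widely between samples, from 5893 to 113660 productive templates, and was lowest in TILs of experiment A. Unique productive TCRBV31-01 rearrangements numbered 302, 326 and 347 in the CD27loCX3CR1lo samples of experiments A, B and C, and 943, 805 and 1122 in the CD27hiCX3CR1lo samples. They numbered 217, 119 and 287 in CX3CR1hi cells and only 61, 37 and 55 in TILs, so that TIL shares are the least precise. The smallest share that 3 templates can show ranged from 0.00264% in CX3CR1hi cells of experiment C to 0.0509% in TILs of experiment A. These floors and the Wilson 95% intervals given here cover counting error only.

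TCRBV31-01 was among the less used productive V genes in the spleen. By unique productive rearrangements it ranked 16 to 19 of the 25 to 28 V genes found in each spleen sample. In TILs it ranked 12 of 24, 19 of 26 and 16 of 24 in experiments A, B and C. In experiments A, B and C it made up 2.33%, 2.53% and 2.24% of unique productive rearrangements in CD27loCX3CR1lo cells, and 2.21%, 2.12% and 2.05% in CD27hiCX3CR1lo cells. It made up 3.03%, 2.13% and 2.51% in CX3CR1hi cells and 4.49%, 2.39% and 2.53% in TILs. The TIL sample of experiment A (Wilson interval 3.51% to 5.72%) stood above all others, CX3CR1hi cells of experiment A came next, and the other samples of all 4 groups lay between 2.05% and 2.53%. The means were 3.14% ± 1.17 (SD, n = 3) in TILs, 2.56% ± 0.455 in CX3CR1hi cells, 2.36% ± 0.146 in CD27loCX3CR1lo cells and 2.13% ± 0.0804 in CD27hiCX3CR1lo cells. The range of CD27hiCX3CR1lo cells (2.05% to 2.21%) overlapped neither that of CD27loCX3CR1lo cells (2.24% to 2.53%) nor that of TILs (2.39% to 4.49%). How often the ranges of other V genes lay apart is not given here. TILs and CX3CR1hi cells, and CX3CR1hi and CD27loCX3CR1lo cells, did not differ beyond their spread. The 4 groups did not differ in an exact within-experiment permutation test (p = 0.125, 576 arrangements). Without experiment B the exact permutation test gave p = 0.0417, the smallest value that 24 arrangements allow. With every sample thinned to the depth of the shallowest (5893 templates), the shares were 2.28%, 2.44% and 2.17% in CD27loCX3CR1lo cells, 2.13%, 2.12% and 2.04% in CD27hiCX3CR1lo cells, 2.75%, 2.68% and 2.96% in CX3CR1hi cells and 4.49%, 2.41% and 2.47% in TILs. At equal depth CX3CR1hi cells thus lay above both CX3CR1lo subsets in all 3 experiments and above TILs in B and C, and the groups did not differ in the exact permutation test (p = 0.210).

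The edgeR quasi-likelihood test over all V genes called TCRBV31-01 in 2 of 6 comparisons, both with CD27hiCX3CR1lo cells. Its share of unique productive rearrangements was higher in CX3CR1hi cells (log2 fold change 0.28, SE 0.0915, edgeR adjusted p = 0.0271) and in TILs (0.51, SE 0.173, edgeR adjusted p = 0.0370). In both comparisons 5 of 25 V genes were called, a background of 20%. Against CD27loCX3CR1lo cells the log2 differences were 0.13 for CX3CR1hi cells (edgeR adjusted p = 0.607, background 0%) and 0.36 for TILs (edgeR adjusted p = 0.224, background 12%). TILs against CX3CR1hi cells gave 0.23 and CD27loCX3CR1lo against CD27hiCX3CR1lo cells gave 0.15, neither called by edgeR (adjusted p = 0.584 and 0.372, background 0% in each). Both calls were lost without experiment A, when the differences were 0.20 for CX3CR1hi cells and 0.25 for TILs (edgeR adjusted p = 0.316 and 0.444). The CX3CR1hi call was also lost without experiment C (edgeR adjusted p = 0.111) and with DESeq2 (adjusted p = 0.314).

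Across the 12 samples, the V genes whose productive shares moved most like that of TCRBV31-01 were TCRBV02-01, TCRBV05-01 and TCRBV01-01, out of 20 V genes at 0.5% or more on average. Pearson's r of the log2 shares was 0.739 for TCRBV02-01, 0.739 for TCRBV05-01 and 0.647 for TCRBV01-01. These shares come from the same libraries and sum to a whole, and all 3 genes had their highest share in TILs of experiment A, at 5.08%, 6.92% and 5.67%.

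TCRBV31-01 was more frequent among out-of-frame than among productive rearrangements in 10 of 12 samples. In experiments A, B and C it made up 4.54%, 3.71% and 4.43% of unique out-of-frame rearrangements in CD27loCX3CR1lo cells, and 4.31%, 3.80% and 3.97% in CD27hiCX3CR1lo cells. It made up 3.49%, 3.86% and 4.14% in CX3CR1hi cells and 3.83%, 2.34% and 4.63% in TILs. In every spleen sample the out-of-frame share lay above the productive share of the same sample, whereas TILs of experiments A and B showed no such gap. The out-of-frame TIL values rest on 24, 16 and 48 TCRBV31-01 rearrangements. Over all samples the out-of-frame share was 3.92% ± 0.610 (SD, n = 12), against 2.55% ± 0.667 for the productive share.

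**Figure D1:**
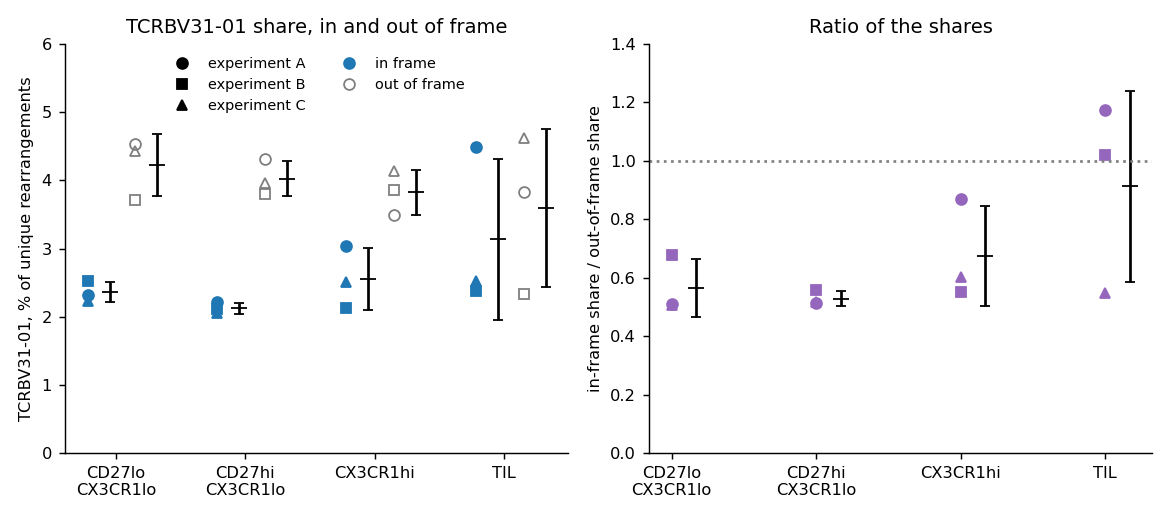
TCRBV31-01 as a percent of unique in-frame (blue) and out-of-frame (open gray) rearrangements (left), and the ratio of the 2 shares (right), for each group and experiment; black bars give mean ± SD of 3 experiments and the dotted line marks equal shares. The ratio is below 1 in all 9 spleen samples and above 1 in TILs of experiments A (1.17) and B (1.02).

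The log2 ratio of productive to out-of-frame share averaged -0.64 ± 0.423 (SD, n = 12), a ratio of 0.643, and differed from 0 in an exact sign-flip permutation test (p = 0.00293). Samples of an experiment are not independent, and the means of the 3 experiments were -0.47, -0.56 and -0.88 (exact sign-flip p = 0.25, the smallest possible with n = 3). In the 9 spleen samples the mean was -0.78 (exact sign-flip p = 0.00391, the smallest possible with n = 9). This subset was chosen after the values were seen, and it leaves out both samples with a ratio above 1. The ratio itself was 0.512, 0.680 and 0.506 in CD27loCX3CR1lo cells, 0.514, 0.557 and 0.518 in CD27hiCX3CR1lo cells, 0.870, 0.552 and 0.605 in CX3CR1hi cells and 1.17, 1.02 and 0.547 in TILs. The lowest group mean was 0.530 ± 0.0241 (SD, n = 3) in CD27hiCX3CR1lo cells and the highest 0.913 ± 0.326 in TILs, and the ratio did not differ between groups in the exact within-experiment permutation test (p = 0.132). Neither did the out-of-frame share on its own (exact permutation p = 0.583).

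Viewed within the gene, 58.4% ± 4.43 of TCRBV31-01 records in CD27loCX3CR1lo cells were productive, against 71.5% ± 0.383 for all other V genes. In CD27hiCX3CR1lo cells these values were 57.7% ± 0.964 and 72.0% ± 0.414. They were 61.3% ± 5.24 and 70.7% ± 0.565 in CX3CR1hi cells, and 64.4% ± 10.1 and 67.9% ± 0.531 in TILs. Among the 20 V genes with a mean productive share of 0.5% or more and counts in every sample, TCRBV31-01 ranked 14 by out-of-frame share and had the fifth lowest ratio of productive to out-of-frame share. TCRBV24-01 (ratio 0.188), TCRBV04-01 (0.538), TCRBV15-01 (0.576) and TCRBV20-01 (0.612) lay below it.

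TCRBV31-01 paired with the upstream TCRBJ01 cluster more often than other V genes did. Among unique productive rearrangements the TCRBJ01 share was 37.8% ± 3.37 (SD, n = 12) for TCRBV31-01 and 34.1% ± 1.04 for the other V genes pooled. The difference of 3.71 percentage points (SD 3.26) was positive in 10 of 12 samples (exact sign-flip p = 0.00293) and averaged 4.31, 3.65 and 3.19 points in experiments A, B and C (exact sign-flip p = 0.25 over the 3 means). In experiments A, B and C the productive TCRBJ01 share of TCRBV31-01 was 35.4%, 40.5% and 38.0% in CD27loCX3CR1lo cells, 43.6%, 40.1% and 36.8% in CD27hiCX3CR1lo cells and 40.1%, 35.3% and 41.8% in CX3CR1hi cells. TILs lay lower, at 34.4%, 35.1% and 32.7%, and differed from the other V genes of the same sample by 0.30, 3.61 and -0.46 points. Out-of-frame rearrangements, which the productive test did not use, showed a difference of 7.94 points (43.2% against 35.3%, higher in 11 of 12 samples, exact sign-flip p = 0.00146). By mean TCRBJ01 share, TCRBV31-01 ranked 5 of 20 V genes in frame and 3 of 20 out of frame. Counted by templates, the productive difference was -0.79 points (exact sign-flip p = 0.756).

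Of the 12 J genes, 2 passed the sign-flip test after Benjamini-Hochberg adjustment over the J genes (16.7%), 1 in each direction. This test treats the 12 samples as independent, although samples of an experiment are not. TCRBJ02-07, the J segment that other V genes used most often, took 19.3% ± 2.75 of unique productive TCRBV31-01 rearrangements and 21.6% ± 1.03 of the others. It was lower with TCRBV31-01 in 10 of 12 samples, by 2.36 points on average (exact sign-flip adjusted p = 0.0205), and out of frame by 4.73 points (adjusted p = 0.0293). TCRBJ01-05 took 5.25% ± 0.988 against 3.56% ± 0.349, higher in 11 of 12 samples by 1.70 points (exact sign-flip adjusted p = 0.0117), and the out-of-frame difference was 0.47 points (adjusted p = 0.533). Without any single experiment neither J gene passed (lowest exact adjusted p = 0.0625), although the differences were still 1.51 to 1.92 points for TCRBJ01-05 and -2.63 to -2.11 points for TCRBJ02-07. With 8 samples a J gene cannot pass the sign-flip test on its own after this adjustment. TCRBJ01-04 (3.28 points higher) and TCRBJ02-04 (1.63 points lower) passed only among out-of-frame rearrangements (exact sign-flip adjusted p = 0.0312 for both). The adjusted p for their productive differences was 0.357 and 0.599.

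**Figure D2:**
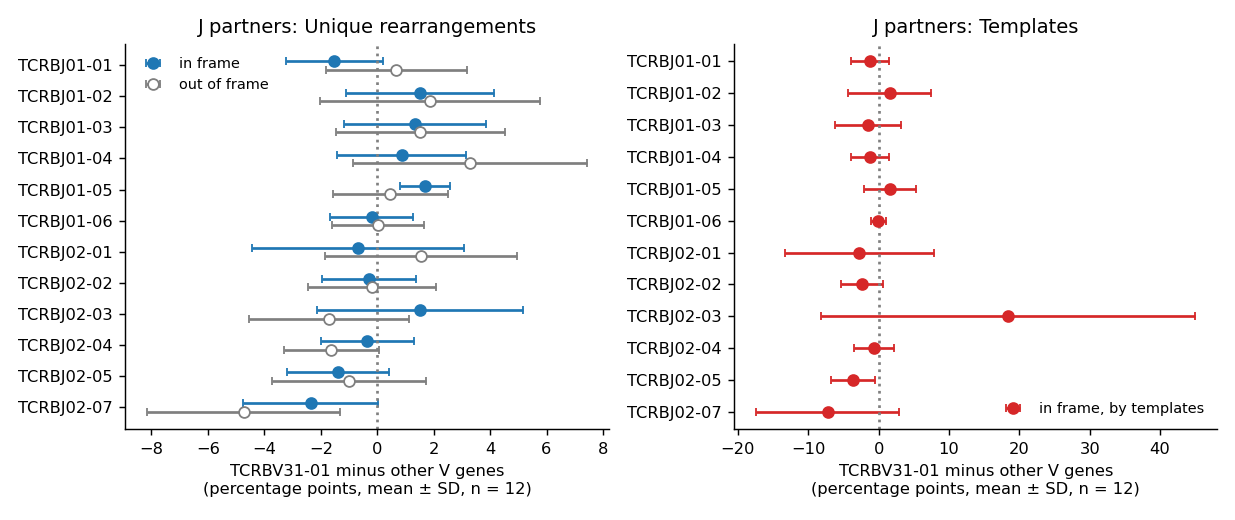
Difference between TCRBV31-01 and all other V genes in the share of each J gene, in percentage points (mean ± SD of 12 samples), for unique in-frame and out-of-frame rearrangements (left) and for in-frame templates (right; the scale differs). TCRBJ02-07 lies below 0 in every panel, and TCRBJ02-03 stands at 18.4 points when templates are counted.

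TCRBJ02-03 showed the largest difference from other V genes of any J gene when templates rather than unique rearrangements were counted. Among unique productive TCRBV31-01 rearrangements it took 8.50% ± 0.492 in CD27loCX3CR1lo, 7.27% ± 0.725 in CD27hiCX3CR1lo and 6.85% ± 1.57 in CX3CR1hi cells. TILs had 16.4%, 10.8% and 16.4% in experiments A, B and C, each above the 8.32%, 8.39% and 6.56% of the other V genes in the same sample. By templates, TCRBJ02-03 took 7.86%, 7.18% and 9.84% of productive TCRBV31-01 templates in CD27loCX3CR1lo cells and 5.63%, 6.06% and 8.47% in CD27hiCX3CR1lo cells. In CX3CR1hi cells it took 13.9%, 29.5% and 73.0%, and in TILs 41.2%, 76.1% and 10.7%. All 6 values of CX3CR1hi cells and TILs lay above all 6 of the CX3CR1lo subsets. Without V31c1 and V31c2 they were 13.9%, 22.3% and 3.95% in CX3CR1hi cells and 41.2%, 10.2% and 1.81% in TILs. Both values of experiment C then lay below those of the CX3CR1lo subsets, which ranged from 5.63% to 7.86%. This separation of the groups was not tested, and TCRBJ02-03 was singled out from these same template values.

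For the other V genes pooled, TCRBJ02-03 held between 1.50% and 8.45% of productive templates in the 12 samples. The template difference averaged 18.4 points (SD 26.6) and was positive in 10 of 12 samples (exact sign-flip adjusted p = 0.0205, again with samples of an experiment treated as independent). It was 4.80 points without the most abundant TCRBV31-01 rearrangement of each sample (adjusted p = 0.0498) and 5.35 points without V31c1 and V31c2 (exact sign-flip adjusted p = 0.192). By templates 2 of the 12 J genes were called, and the other was TCRBJ02-05. Its share was lower with TCRBV31-01 by 3.61 points, and higher in only 1 of 12 samples (exact sign-flip adjusted p = 0.0176). TCRBJ02-03 was also called among unique rearrangements of 2 or more templates, where 3 J genes were called. Over the CX3CR1hi and TIL samples, TCRBJ02-03 held 40.7% of productive TCRBV31-01 templates on average, and TCRBV24-01 came next among the 20 V genes with 20.0%. TCRBJ02-03 was picked from these same TCRBV31-01 template values, so a high rank of TCRBV31-01 was built in. The largest J share of each other V gene was not compared. In out-of-frame templates of the same samples the TCRBV31-01 average was 1.83%, the lowest of the 20 V genes.

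**Figure D3:**
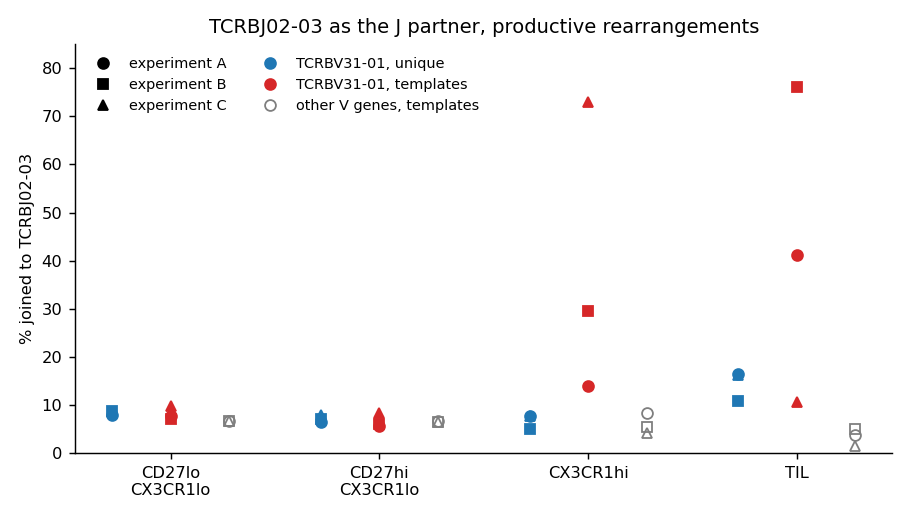
Percent of productive rearrangements joined to TCRBJ02-03 in each sample: unique TCRBV31-01 rearrangements (blue), TCRBV31-01 templates (red) and templates of all other V genes (open gray). The red points of CX3CR1hi cells and TILs spread from 10.7% to 76.1%, above those of the CX3CR1lo subsets, which end at 9.84%.

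The CDR3 of TCRBV31-01 was shorter than that of other V genes. Unique productive rearrangements averaged 40.8 ± 0.256 nt (SD, n = 12) against 41.9 nt for the others, a difference of -1.09 ± 0.279 nt that was negative in 12 of 12 samples (exact sign-flip p = 0.000488, the smallest that 4096 sign patterns allow). Samples of an experiment are not independent, and the means of the 3 experiments were -1.20, -1.06 and -1.03 nt (exact sign-flip p = 0.25 over the 3 means). The median was 42 nt in both sets in every sample. Out of frame the difference was -0.73 ± 0.675 nt (lower in 11 of 12 samples, exact sign-flip p = 0.00537). By mean productive length TCRBV31-01 ranked 19 of 20 V genes.

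The parts of the joint differed in different directions. V31c3 and V31c5 above have an untrimmed V end. On average, 12.0 ± 0.283 V bases remained in the CDR3 of productive TCRBV31-01 rearrangements, against 13.6 for other V genes (-1.60 nt, lower in 12 of 12 samples). TCRBV31-01 nevertheless lost fewer V bases, 1.98 against 2.68 on average, and its V end was untrimmed in 35.9% ± 6.02 of productive rearrangements against 22.6%. The same held out of frame, where 1.98 against 2.93 V bases were lost and the V end was untrimmed in 37.1% ± 2.83 against 23.1%. Inserted bases between V and D were more numerous, 2.03 against 1.78 (higher in 11 of 12 samples), whereas 1.70 and 1.69 bases were inserted between D and J. J segments contributed 18.4 against 18.1 bases and D segments 6.66 against 6.63.

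The choice of D segment also differed within rearrangements to the TCRBJ02 cluster, which can use either D segment. TCRBD01-01 was assigned in 32.6% ± 6.09 of productive TCRBV31-01 rearrangements to TCRBJ02 with a named D segment and in 40.3% of those of other V genes, lower in 11 of 12 samples. Out of frame these values were 31.7% ± 8.10 and 41.9%, again lower in 11 of 12 samples. These trimming, insertion and D segment values were not tested.

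Between groups, mean productive CDR3 length of TCRBV31-01 differed in the exact within-experiment permutation test (p = 0.0191). It was 41.0, 41.0 and 41.3 nt in CD27hiCX3CR1lo cells, 40.6, 40.9 and 40.6 nt in CD27loCX3CR1lo cells, 40.6, 40.8 and 40.9 nt in CX3CR1hi cells and 40.4, 40.5 and 40.6 nt in TILs of experiments A, B and C. CD27hiCX3CR1lo cells were longest in each experiment. When rearrangements were weighted by templates the exact permutation test gave p = 0.917, and with those of 2 or more templates the exact p was 0.990.

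Counted by templates, much of TCRBV31-01 in CX3CR1hi cells and TILs lay in single rearrangements, the most abundant of which held up to 73.4% of TCRBV31-01 templates (TILs of experiment B) and at most 5.22% in the CX3CR1lo subsets. TCRBV31-01 held 2.29%, 2.38% and 2.30% of productive templates in CD27loCX3CR1lo cells and 2.14%, 2.12% and 2.06% in CD27hiCX3CR1lo cells of experiments A, B and C. CX3CR1hi cells ranged from 1.71% (A) and 2.81% (B) to 8.80% (C), and TILs held 2.31%, 2.97% and 3.20%. CX3CR1hi cells of experiment C thus stood far above every other sample, and TCRBV31-01 was the third most abundant productive V gene there. Without the most abundant TCRBV31-01 rearrangement of each sample, CX3CR1hi cells held 1.34%, 2.31% and 2.64% and TILs 1.67%, 0.809% and 2.03%.

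The template share did not differ between groups in the exact within-experiment permutation test (p = 0.516), nor without V31c1 (p = 0.168), an alternative chosen after the values were seen. By edgeR the largest log2 difference between groups was 0.86 (SE 0.454) for CX3CR1hi against CD27hiCX3CR1lo cells (adjusted p = 0.265), and it was 0.05 without experiment C. Other settings gave larger values for this pair, namely 1.12 with TMM scaling (edgeR adjusted p = 0.167), 1.20 with DESeq2 (adjusted p = 0.0854), 1.08 without the experiment block (edgeR adjusted p = 0.206), 1.36 without experiment A (edgeR adjusted p = 0.372) and 1.08 without experiment B (edgeR adjusted p = 0.419). The unadjusted p was 0.0919 without experiment B (edgeR). In the other settings listed, and without the filter on V genes, it lay below 0.05, and none passed adjustment. CX3CR1hi against CD27loCX3CR1lo cells gave 0.73 (edgeR adjusted p = 0.336) and -0.08 without experiment C. TILs against CX3CR1hi cells gave -0.48 (edgeR adjusted p = 0.511) and 0.24 without experiment C. In none of the 6 pairs of groups was TCRBV31-01 called by edgeR on templates. In the main edgeR fit, before any change of setting, the lowest unadjusted p was 0.0684 (CX3CR1hi against CD27hiCX3CR1lo cells). Backgrounds in that fit were 16.7% of 24 V genes for TILs against either CX3CR1lo subset, 4.17% for TILs against CX3CR1hi cells and 0% for the remaining pairs.

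**Figure D4:**
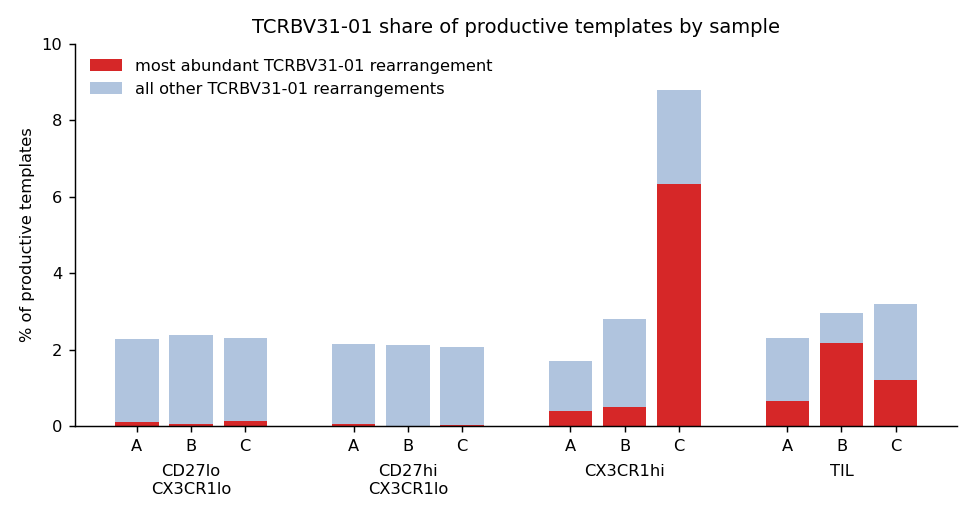
TCRBV31-01 as a percent of productive templates in each sample, with the most abundant TCRBV31-01 rearrangement of that sample in red and all others stacked above it in blue. The red part is at most 0.120% in the CX3CR1lo subsets and reaches 6.33% of 8.80% in CX3CR1hi cells of experiment C and 2.18% of 2.97% in TILs of experiment B.

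Rearrangements at or above 0.1% of productive templates were called expanded. TCRBV31-01 accounted for 3 of 143, 7 of 126 and 7 of 144 expanded rearrangements in CX3CR1hi cells of experiments A, B and C, and for 3 of 115, 2 of 128 and 5 of 131 in TILs. Together these were 27 of 787 expanded records (3.43%). The CX3CR1lo subsets held few expanded rearrangements of any V gene, and 1 of 18 (5.56%) used TCRBV31-01. The TCRBV31-01 share was 0.56 points higher among expanded than among other productive rearrangements (SD 2.19), positive in 3 of 6 samples (exact sign-flip p = 0.562). Its share of expanded rearrangements was 2.10%, 5.56% and 4.86% in CX3CR1hi cells and 2.61%, 1.56% and 3.82% in TILs, on both sides of its share of the others.

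The expanded records were 23 distinct rearrangements with CDR3 lengths of 30 to 48 nt. TCRBJ02-03 was the J gene of 5 of them and 4 had no inserted base, where all unique productive TCRBV31-01 rearrangements averaged 9.28% and 9.60%. A TCRBJ02 gene was used by 14 (60.9%), near the 62.2% of all unique productive TCRBV31-01 rearrangements. These features were not tested. V31c1 held 6.33% (6.19% to 6.47%) of productive templates in CX3CR1hi cells of experiment C, 7191 templates, and ranked first in that sample. It also ranked first in CD27hiCX3CR1lo cells of experiment C with 27 templates (0.0377%), and held 0.0879% in CD27loCX3CR1lo cells and 0.291% in TILs of that experiment. It was not found in the 8 samples of experiments A and B, where 3 templates amount to between 0.00538% and 0.0509%.

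V31c6, the most abundant TCRBV31-01 rearrangement of CX3CR1hi cells in experiment B (0.506%), differs from V31c1 at 2 of 87 bases. Counted from 1 at the first printed base of V31c1, these are G60A and G61A, both among the 10 bases between the V and J ends. The CDR3 has the same length of 42 nt. Another expanded pair, V31c9 and a TCRBJ01-03 rearrangement of experiment B, also differed at 2 of 87 bases. V31c6 held 0.0323% in TILs of experiment B (4 templates), and was found with 2 templates in CD27loCX3CR1lo and 3 in CD27hiCX3CR1lo cells. Beyond it, 4 further TCRBV31-01 rearrangements encoded a CDR3 with at most 1 amino acid difference from that of V31c1, each with at most 2 templates. All 5 were joined to TCRBJ02-03, but the J segment encodes the end of the CDR3, so that this choice by CDR3 largely fixed the J gene. Each experiment held at least 1. This set was chosen after the values were seen.

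V31c2 held 2.18% of TIL templates in experiment B (1.94% to 2.45%), which was 73.4% of all TCRBV31-01 templates of that sample, and 0.261% in CX3CR1hi cells. In the CX3CR1lo subsets of experiment B it was found with 1 and 2 templates. In experiment A, V31c5 held 0.645% in TILs, 0.0412% in CX3CR1hi cells and 0.0218% in CD27loCX3CR1lo cells. V31c3 held 1.19% of TIL templates in experiment C, 0.329% in CX3CR1hi cells, 0.120% in CD27loCX3CR1lo cells and 0.00559% in CD27hiCX3CR1lo cells. V31c7 was the most abundant TCRBV31-01 rearrangement of all 3 spleen samples of experiment A, at 0.384% in CX3CR1hi, 0.0925% in CD27loCX3CR1lo and 0.0463% in CD27hiCX3CR1lo cells. It was not found in TILs of experiment A, where 3 templates amount to 0.0509%. V31c9, the join without any added base, was the only expanded rearrangement present in more than 1 experiment, at 0.120% and 0.267% of CX3CR1hi templates in experiments A and B, with 2 templates in CD27loCX3CR1lo cells of A and 1 in TILs of B.

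**Figure D5:**
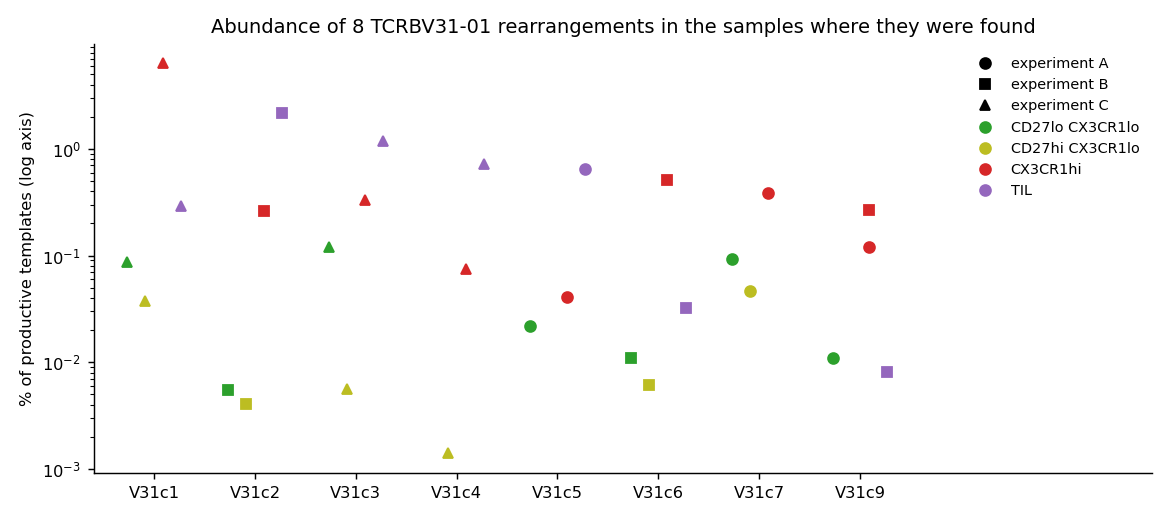
Share of productive templates (log axis) of 8 TCRBV31-01 rearrangements in every sample where they were found, colored by group and with a symbol for each experiment. V31c1 reaches 6.33% in CX3CR1hi cells, V31c2 to V31c5 are highest in TILs, and V31c9 alone carries the symbols of 2 experiments.

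TCRBV31-01 rearrangements of TILs were looked for in the spleen of the same experiment by nucleotide identity. Of the productive TCRBV31-01 templates in TILs, 44.1% (A), 89.9% (B) and 93.4% (C) belonged to rearrangements also found in CX3CR1hi cells. The values were 38.2%, 75.0% and 59.3% for CD27loCX3CR1lo cells and 8.82%, 75.0% and 71.0% for CD27hiCX3CR1lo cells. CX3CR1hi cells thus had the highest value in each experiment. In experiment B, V31c2 made up 270 of the 276 TIL templates behind both values of 75.0%. It was found there with only 1 and 2 templates in the CX3CR1lo subsets. Productive templates searched numbered 18180 to 21622 in CD27loCX3CR1lo, 49116 to 71574 in CD27hiCX3CR1lo and 50994 to 113660 in CX3CR1hi cells. The effect of this unequal depth was not tested. CX3CR1hi cells exceeded the mean of both CX3CR1lo subsets by 20.6, 14.9 and 28.3 points (mean 21.3, exact within-experiment permutation p = 0.0370, the smallest that 27 arrangements allow). The other V genes together gave a mean difference of 31.3 points with the same p, and whether TCRBV31-01 differed from them was not tested. As a background, CX3CR1hi cells of the other experiments contained between 0% and 1.47% of TCRBV31-01 TIL templates, and between 3.17% and 15.9% of the TIL templates of other V genes.

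Between experiments, few TCRBV31-01 sequences recurred. Of 4449 distinct productive sequences 39 (0.877%) were found in at least 2 experiments, against 2.57% for other V genes. Among out-of-frame sequences the shares were 0.351% (11 of 3131) and 0.307%. Recurrent productive TCRBV31-01 sequences carried 1.05 inserted bases on average, and the remaining ones 3.86.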

How the data were processed

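The authors amplified TCRβ CDR3 regions from genomic DNA with the ImmunoSEQ kit and sequenced them on a NextSeq instrument. The deposited counts are whole template numbers per rearrangement, without normalization, and equal the deposited estimate of genomes in every row. V, D and J assignments, CDR3 lengths, deletions and insertions were used as deposited. The submitters' processing notes name the build mm10, and the aligner is not given in the sources used here. Gene positions are from RefSeq (GRCm38.p6).

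Groups and experiments were taken from the sample labels. The experiment was the block, because samples of an experiment share a title code and TIL rearrangements recurred in the spleen mainly within experiments. Deviations of V gene shares from the group means correlated little more within experiments (median r 0.058, from -0.47 to 0.62, 7 of 18 pairs over 0.1) than between them (median r -0.020, from -0.58 to 0.58, 13 of 36 pairs). CX3CR1hi cells and TILs of an experiment correlated (r 0.62, 0.54 and 0.43). In contrast, TILs gave r -0.47 with CD27loCX3CR1lo cells in experiment B and -0.43 with CD27hiCX3CR1lo cells in experiment C. Shares across groups were tested by exact two-sided permutation within experiments, differences from other V genes by exact two-sided sign flips, and pairs of groups by edgeR 4.0.16 (quasi-likelihood, group and experiment, total as library size, filterByExpr) with Benjamini-Hochberg adjustment over V genes. DESeq2 1.42.0 was an alternative. R 4.3.3, Python 3.11.15, numpy 2.4.6, pandas 2.3.3, scipy 1.17.1 and matplotlib 3.10.9 were used, and the threshold was 0.05. Several mice contributed to each experiment, and p-values measure the spread between samples, not between mice. The tests were checked on simulated data. V genes are named by likeness of their share, and rearrangements by their rank in a sample, their share (above 1%) or their presence in TILs and CX3CR1hi cells. V31c9 falls outside this rule and was chosen after its values were seen. The gene, lists and tests were chosen with earlier results of these data known.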

Additional observations from a re-analysis of the deposited data

How the results depend on the processing

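Across the alternatives for the main comparisons, 144 values kept their side of the threshold and any direction they had. Of the others, 25 fell short of the threshold, 3 passed it and 5 turned. Numbers of calls among these values counted as kept when similar in size, whichever genes were called. With no replicate block, the log2 difference in unique share from CD27hiCX3CR1lo cells was 0.28 for CX3CR1hi cells (edgeR adjusted p = 0.0688) and 0.50 for TILs (edgeR adjusted p = 0.110), so that 0 of 6 pairs were called in place of 2, and the TIL sharing contrast of 21.3 points had an exact p of 0.310. Pairing changed no other call. DESeq2 called 1 pair, TILs against CD27hiCX3CR1lo cells (0.58, adjusted p = 0.00938), and not CX3CR1hi against CD27hiCX3CR1lo cells (0.27, adjusted p = 0.314). With rearrangements of 2 or more templates, CX3CR1hi against CD27loCX3CR1lo cells was called at 0.42 (edgeR adjusted p = 0.0375), TILs against CD27hiCX3CR1lo cells was not at 0.44 (edgeR adjusted p = 0.134), and CD27loCX3CR1lo against CD27hiCX3CR1lo cells turned to -0.0089. The permutation p of CDR3 length across groups became 0.990 with these rearrangements, 0.917 weighted by templates and 1 with medians, which were all equal, as were those against other V genes (difference 0). Weighted by templates, the TCRBJ01 difference was -0.79 points. For single J genes, 4 were called by templates without each sample's most abundant TCRBV31-01 rearrangement and 0 without V31c1 and V31c2, both alternatives chosen after seeing the data. The causes were not tested. Leaving out each experiment in turn gave permutation p-values of 0.0417 to 0.375 for the unique share and 0.0417 to 0.25 for CDR3 length across groups, log2 differences in unique share from CD27hiCX3CR1lo cells of 0.20 to 0.36 for CX3CR1hi cells and 0.25 to 0.64 for TILs, and 0 to 2 pairs called. It gave template log2 differences of -0.075 to 1.20 for CX3CR1hi against CD27loCX3CR1lo cells and -0.81 to 0.24 for TILs against CX3CR1hi cells, 0 to 0 J genes called (where 8 samples leave little room to pass), -0.10 to 1.59 points for expanded rearrangements and 17.8 to 24.4 points for TIL sharing, where 0.111 is the smallest p that 2 experiments allow. The low TIL counts limit every TIL share.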
